A study of Mus musculus with 24 samples.

Results

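The genes described here encode the enzymes that build and trim sugar chains in the endoplasmic reticulum (ER) and the Golgi apparatus. They were chosen by name, exact case, from the families Galnt, B4galt, B3galt, B3gnt, St3gal, St6gal, St8sia, Mgat, Fut, Pofut, Pomt, Pomgnt, Man, Ext, Extl and Alg, together with Dpagt1, the Stt3 pair, the Rpn pair and Eogt. The rule found 106 genes among 19660 rows with a value in every library. Rows that join several gene names were left out by the rule, which removed 2 rows holding names of these families. The name rule also takes in some enzymes outside the label: the mannosidases are hydrolases, Man2b1 and Man2b2 act in lysosomes and Man2c1 in the cytosol.

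The material was RNA of 24 entire hearts from adult mice of the strain C57BL/6J, 6 per group in 4 groups, and each group held 3 males and 3 females. The groups were wildtype (WT), a cardiac specific OGA transgenic (OGA_TG), a cardiac specific OGT transgenic (OGT_TG) and the double transgenic that carries both (DTG). The promoter of the transgenes and the number of founder lines are not given in the sources used here, and the mice received no treatment. The unit is FPKM, the fragments of a transcript scaled to its length and to the fragments mapped in the library, which allows levels of different genes to be compared per length.

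OGT is the enzyme of the nucleus and cytosol that places single GlcNAc residues on proteins, using UDP-GlcNAc, and OGA removes them. The enzymes described here draw on the same donor and on related sugar nucleotides, but inside the ER and Golgi. N-glycans begin as an oligosaccharide on dolichol, assembled by the Alg enzymes, which the oligosaccharyltransferase moves onto nascent proteins. Mannosidases then trim it, Mgat enzymes add branches, and galactose, fucose and sialic acid complete the chains. O-linked chains start separately, with GalNAc on mucin-type sites, mannose on dystroglycan, or a xylose linker on the proteoglycans that carry heparan sulphate. In the heart these chains coat ion channels, receptors, laminin-binding dystroglycan and the matrix.

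The row named OGT in capitals, which marks the transgene, stood at 0.415 to 3.44 FPKM in WT hearts, 715 to 2691 FPKM in OGT_TG hearts and 3986 to 5261 FPKM in DTG hearts. The OGA row was at most 0.0222 FPKM in WT and 0.0125 FPKM in OGT_TG, against 3090 to 5208 FPKM in OGA_TG and 3065 to 3922 FPKM in DTG. All 24 libraries matched their genotype labels in these rows. Sums of FPKM ran from 463500 to 513602 per library, and total read counts are not given. Of 8 cardiomyocyte markers, 6 were found, all above 1 FPKM on average, and their summed level was 18202 to 20962 FPKM in WT, 15014 to 16928 in OGT_TG and 14353 to 17294 in DTG. OGT_TG replicates 3 and 6 stood apart. The sum of 7 macrophage markers was 497 and 426 FPKM there, while the remaining 4 OGT_TG hearts had 216 to 271 FPKM and WT hearts 164 to 198 FPKM. Results that involve OGT_TG are therefore given with and without these libraries where they move.

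In WT hearts, 12 members averaged at least 20 FPKM, 38 lay between 5 and 20, 28 between 1 and 5, and 28 under 1 FPKM. The highest mean levels belonged to Rpn2, a subunit of the oligosaccharyltransferase, at 41.4 ± 2.7 FPKM (SD, n = 6), and to Galnt1, which starts mucin-type O-glycans, at 39.3 ± 4.2 FPKM. St3gal3, which adds sialic acid to galactose, followed at 37.7 ± 4.9 FPKM. These 3 means were closer together than the spread of their hearts. Next came Mgat4b, an N-glycan branching enzyme, at 33.7 ± 2.3 FPKM, and B4galt1, which adds galactose to GlcNAc, at 31.4 ± 1.4 FPKM.

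In some families a few members carried the level and others were near 0. Of 17 genes of mucin-type initiation, 9 reached the expression minimum for testing (at least 1 FPKM in at least 6 libraries), and the same held for 10 of 17 sialyltransferases, 5 of 9 fucosylation genes and 4 of 8 genes of lactosamine and related GlcNAc transfer. All 13 genes of lipid-linked precursor assembly, all 9 mannosidases, all 4 oligosaccharyltransferase subunits, all 5 heparan sulphate genes and all 3 genes of O-mannosylation passed. In all, 80 members were tested and 26 were not. Of the 106, 12 were listed at 0 in at least 12 libraries and 0 were at 0 in every library. The tested members had a median WT level of 7.04 FPKM, against 8.57 FPKM over all 12020 rows tested.

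**Figure D1:**
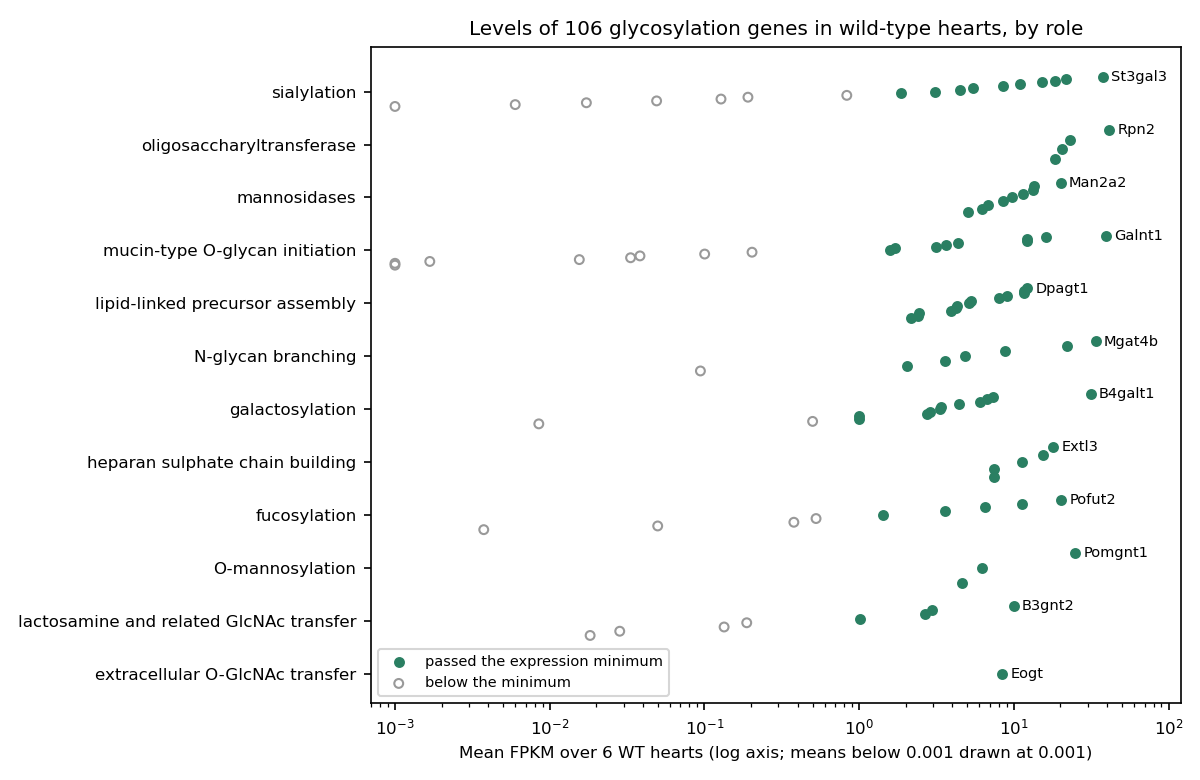
Mean FPKM over the 6 WT hearts on a log axis for each of the 106 members, by role, with the highest member of each role named; filled points passed the expression minimum and open points did not. Rpn2 at 41.4 FPKM is the highest, and every member of the lipid-linked precursor assembly, mannosidase, oligosaccharyltransferase, heparan sulphate and O-mannosylation groups is filled.

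Promoter sequence is shown for 3 members that changed in the hearts carrying the OGT transgene and whose values are given further on: Alg14 and Galntl1 (current symbol Galnt16), which were higher in OGT_TG and in DTG than in WT, and B3galt2, which was lower in DTG than in each other group. Each run is the 250 bases before the gene's start as RefSeq gives it on GRCm38.p6, 5′ to 3′ on the gene's strand, from a table that held promoters of 80 of the 106 members. Capitals mark a match to the E-box CACGTG.
Alg14, chr3:121291490-121291739, plus strand: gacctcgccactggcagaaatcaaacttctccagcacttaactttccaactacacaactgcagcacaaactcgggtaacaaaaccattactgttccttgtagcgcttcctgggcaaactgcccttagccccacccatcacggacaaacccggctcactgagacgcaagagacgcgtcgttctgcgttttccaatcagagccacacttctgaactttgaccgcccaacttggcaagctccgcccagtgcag
Galntl1, chr12:80518221-80518470, plus strand: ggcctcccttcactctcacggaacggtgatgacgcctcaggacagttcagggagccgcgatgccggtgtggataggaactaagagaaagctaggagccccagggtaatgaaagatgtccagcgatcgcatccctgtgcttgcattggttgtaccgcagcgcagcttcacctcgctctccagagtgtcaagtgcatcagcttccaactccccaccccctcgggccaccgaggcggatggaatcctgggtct
B3galt2, chr1:143640447-143640696, plus strand: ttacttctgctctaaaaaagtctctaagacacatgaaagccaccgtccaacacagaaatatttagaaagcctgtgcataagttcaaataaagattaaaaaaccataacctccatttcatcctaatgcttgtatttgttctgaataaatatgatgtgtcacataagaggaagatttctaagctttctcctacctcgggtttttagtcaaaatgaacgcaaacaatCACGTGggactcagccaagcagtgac

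The B3galt2 window held 36.8% G and C and 4 CpG pairs, the Alg14 window 53.2% and 12 CpG pairs, and the Galntl1 window 59.2% and 14 CpG pairs. The median over the members' windows was 63.6% G and C, so all 3 lay below it and B3galt2 furthest. The windows were searched on both strands for the palindromic E-box CACGTG and for the consensus letters of the ER stress element, the cyclic AMP response element and the amino acid response element, and no match to the last 3 was in these windows. The E-box was found at -26 in the B3galt2 window. It is held by 6.86% of the 27025 genes with a promoter in the table, and by 9 of the 80 such members. A match is a description of letters and not of binding.

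OGT_TG hearts were compared with WT to ask how the glycosylation genes stand when OGT is raised in the heart. In OGT_TG 22 of the 80 tested members rose and 2 fell at an adjusted p under 0.05, by limma on log2(FPKM + 1) with Benjamini-Hochberg adjustment over all 12020 rows. Over all rows 25.2% rose and 12.2% fell, 37.4% in either direction, and 30.0% of the members were called, a share below that of the table as a whole. Their median difference was 0.14 on the log2 scale against 0.06 over all tested rows. The sizes were small: 4 members changed by at least 0.5 and 0 by at least 1. In 8 members all 6 OGT_TG hearts lay beyond all 6 WT hearts, which was the case for 15.1% of all rows.

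The calls in OGT_TG moved with scaling and with 2 libraries. After median-of-ratios scaling, which sets the median of all rows near 0, 13 members rose and 5 fell, the added falls being Pomt2, Extl3 and Alg6. Of all 12020 rows 2168 rose and 2122 fell under that scaling, 35.7% in either direction. Without OGT_TG replicates 3 and 6, 16 members were called, 15 of them the same genes, against 25.3% of all rows, and the members' median was 0.06 against 0.05 over all rows. Fibroblast markers moved with the same comparison: all 8 rose, and their summed level was 1043 to 1223 FPKM in WT, 1715 to 2579 in OGT_TG and 1146 to 1505 in DTG. Of 7 macrophage markers 4 rose, and of 6 cardiomyocyte markers 4 fell, where 25.2% of all rows rose and 12.2% fell. The part of these cell types in the members' changes was not tested, and in whole hearts more cells of a type and more RNA per cell cannot be told apart.

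**Figure D2:**
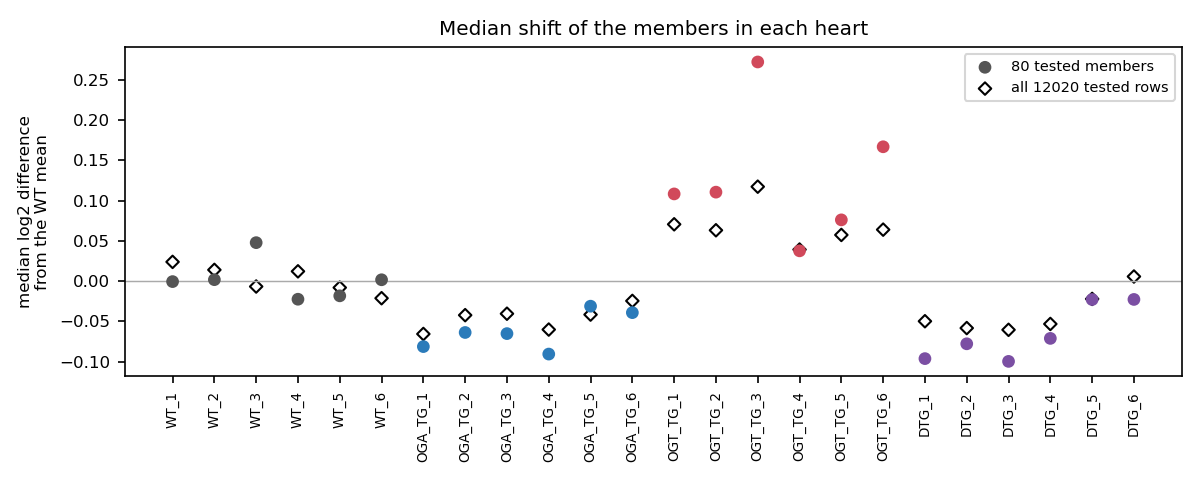
Median log2 difference of FPKM + 1 from the WT mean in each of the 24 hearts, over the 80 tested members (filled, coloured by genotype) and over all 12020 tested rows (open diamonds). OGT_TG replicates 3 and 6 hold the highest member medians, and in both the members lie above all rows.

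Of the 13 genes of lipid-linked precursor assembly, Alg3, Alg5 and Alg14 rose in OGT_TG. Alg5 makes the dolichol-linked glucose that caps the precursor. It lay at 7.24 to 11.9 FPKM in WT (median 8.75), 7.64 to 10.4 in OGA_TG (median 8.89), 12.5 to 15.2 in OGT_TG (median 13.6) and 9.05 to 11.1 in DTG (median 10.5). All 6 OGT_TG hearts were above every heart of the other groups. Alg5 rose by 0.56 ± 0.09 (log2 difference ± SE) in OGT_TG against WT (adjusted p = 3.9e-05) and was lower by -0.38 ± 0.09 in DTG against OGT_TG (adjusted p = 0.0024).

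Alg14 anchors the enzyme that adds the second GlcNAc of the precursor, from UDP-GlcNAc, and its promoter is shown above. Its level was 9.15 to 14.6 FPKM in WT (median 11.8), 7.73 to 12.9 in OGA_TG (median 10.9), 13.9 to 20.4 in OGT_TG (median 16.9) and 13.7 to 19.1 in DTG (median 16.2). WT reached into the OGT_TG and DTG ranges through 1 heart, replicate 5. Alg14 rose by 0.52 ± 0.12 in OGT_TG (adjusted p = 0.0015) and by 0.45 ± 0.12 in DTG (adjusted p = 0.011), both against the same WT hearts. It was also higher in DTG than in OGA_TG, by 0.59 ± 0.12 (adjusted p = 0.0011). Alg13, its catalytic partner, stood at 2.15 ± 0.39 FPKM in WT and 2.27 ± 0.14 in OGT_TG and passed the test in no comparison.

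Alg3 adds the first of the mannoses taken from dolichol phosphate mannose. Its levels were 4.29 to 6.09 FPKM in WT (median 5.41), 4.5 to 6.39 in OGA_TG (median 5.47), 5.45 to 7.65 in OGT_TG (median 6.27) and 6.63 to 8.82 in DTG (median 7.1). All 6 DTG hearts were above all WT and all OGA_TG hearts. Alg3 rose by 0.40 ± 0.09 in DTG against WT (adjusted p = 0.0049). Its rise of 0.24 ± 0.09 in OGT_TG (adjusted p = 0.044) was lost without OGT_TG replicates 3 and 6 (0.15), under median-of-ratios and quantile scaling, and without any of 8 single hearts. Alg3 shares 143 exon bases with Eef1akmt4 on the opposite strand, and the strand setting of the counting is not given.

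In DTG 3 other genes of the assembly fell. Alg6, which adds the first glucose, fell from 3.93 ± 0.55 to 2.88 ± 0.47 FPKM, a log2 difference of -0.35 ± 0.10 (adjusted p = 0.024). Alg12, a mannosyltransferase, fell by 0.22 ± 0.07 (adjusted p = 0.032) and Alg2, which adds the first mannoses after Alg1, by 0.21 ± 0.07 (adjusted p = 0.039). The calls of Alg12 and Alg2 ended under median-of-ratios, quantile and equal-sum scaling, and that of Alg6 under the last 2. Dpagt1, which starts the precursor, stood at 12.2 ± 0.91 FPKM in WT and was not called against WT in any group. Of the 13 genes, 3 rose in OGT_TG and 2 rose and 3 fell in DTG, against WT. Over all rows 25.2% rose in OGT_TG, and 4.21% rose and 11.4% fell in DTG.

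Of the 4 oligosaccharyltransferase subunits, Stt3a and Rpn2 rose in OGT_TG, where 25.2% of all rows rose. Stt3a, the catalytic subunit that works as the chain emerges from the ribosome, went from 17.7 to 19.4 FPKM in WT (median 18.1) to 19.7 to 30 in OGT_TG (median 22.9), with OGA_TG at 15.6 to 21.8 (median 18.2) and DTG at 15.4 to 21.3 (median 18.8). All 6 OGT_TG hearts lay above all WT hearts, and the rise was 0.32 ± 0.09 (adjusted p = 0.0056). Rpn2 rose by 0.19 ± 0.07 (adjusted p = 0.035). Both calls were lost without OGT_TG replicates 3 and 6, where the differences were 0.22 and 0.06. Stt3b, the catalytic subunit of the later-acting complex, was at 20.6 ± 1.0 FPKM in WT and 21.2 ± 1.1 in OGT_TG, and Rpn1 at 23.1 ± 0.75 and 24.6 ± 1.6 FPKM. Neither passed the test against WT. Rpn2 shares 144 exon bases with Mroh8 on the opposite strand.

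Among the 9 mannosidases 4 rose in OGT_TG, where 25.2% of all rows rose. Man1a, a Golgi enzyme that trims the precursor's outer mannoses, lay at 7.36 to 9.91 FPKM in WT (median 8.54), 7.42 to 8.02 in OGA_TG (median 7.82), 11.1 to 13.6 in OGT_TG (median 12.5) and 8.22 to 10.2 in DTG (median 9.07). The OGT_TG hearts overlapped no other group. The rise was 0.49 ± 0.06 (adjusted p = 4.1e-06), and it held without OGT_TG replicates 3 and 6. Man1c1, of the same Golgi class, rose by 0.32 ± 0.11 (adjusted p = 0.022) and Man2b2, a lysosomal mannosidase, by 0.48 ± 0.16 (adjusted p = 0.022). Both lost the call without replicates 3 and 6 (0.15 and 0.28), the hearts where Man2b2 was highest, at 12.7 and 13.6 FPKM, the remaining 4 OGT_TG hearts lying at 6.58 to 9.84. Man2a1, a Golgi mannosidase that acts after the first branch is set, rose as well, from 6.19 ± 0.71 to 7.85 ± 1.4 FPKM. Without those hearts Man1a alone of the 9 was called.

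The branching enzymes of N-glycans moved in both directions. Mgat4a and Mgat4b add the same branch GlcNAc. Mgat4b, the more abundant in the heart, lay at 31.4 to 36.7 FPKM in WT (median 33.2), 29.5 to 34.3 in OGA_TG (median 32.1), 24.4 to 29.9 in OGT_TG (median 27.5) and 24.8 to 30.4 in DTG (median 28.8). Every OGT_TG and DTG heart was below every WT heart. Mgat4b fell by 0.31 ± 0.06 in OGT_TG (adjusted p = 0.00053) and by 0.24 ± 0.06 in DTG (adjusted p = 0.0095), against the same WT hearts.

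Mgat4a lay at 3.06 to 4.16 FPKM in WT (median 3.65), 3.34 to 4.06 in OGA_TG (median 3.74), 4.34 to 5.61 in OGT_TG (median 4.69) and 2.96 to 4.46 in DTG (median 3.86). All OGT_TG hearts were above all WT hearts, and DTG overlapped both. It rose by 0.34 ± 0.08 in OGT_TG (adjusted p = 0.0032) and was lower by -0.28 ± 0.08 in DTG than in OGT_TG (adjusted p = 0.015).

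Mgat5 adds the branch that is often extended with lactosamine. It lay at 3.99 to 5.63 FPKM in WT (median 4.91), 4.52 to 5.6 in OGA_TG (median 5.05), 5.29 to 6.75 in OGT_TG (median 6) and 5.15 to 6.55 in DTG (median 6.25). The ranges of WT and both OGT-carrying groups overlapped slightly. Mgat5 rose by 0.26 ± 0.07 in OGT_TG (adjusted p = 0.0047) and by 0.29 ± 0.07 in DTG (adjusted p = 0.0051). The OGT_TG call was lost under quantile scaling. Mgat5 shares 140 exon bases with Tmem163 on the opposite strand. Mgat2, which opens the second antenna, rose by 0.23 ± 0.09 in OGT_TG (adjusted p = 0.043), a call lost without OGT_TG replicates 3 and 6 (0.14). Mgat1, which starts the first antenna, stood at 22.2 ± 2.6 FPKM in WT and 23.9 ± 4.4 in OGT_TG and was not called.

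Mgat3 adds the bisecting GlcNAc and was the only member called in OGA_TG against WT. It lay at 1.4 to 2.43 FPKM in WT (median 2.14), 0.957 to 1.48 in OGA_TG (median 1.1), 1.22 to 2.29 in OGT_TG (median 1.85) and 1.36 to 2.5 in DTG (median 1.62). A single WT heart, replicate 3, reached into the OGA_TG range. Mgat3 fell by 0.48 ± 0.10 (adjusted p = 0.040), and the background in that comparison was 0.358% of rows, 0.0582% rising and 0.3% falling. The call was lost under median-of-ratios, quantile and equal-sum scaling (log2 difference -0.44, -0.42 and -0.45; adjusted p = 0.090, 0.19 and 0.072) and without any of 14 single hearts.

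**Figure D3:**
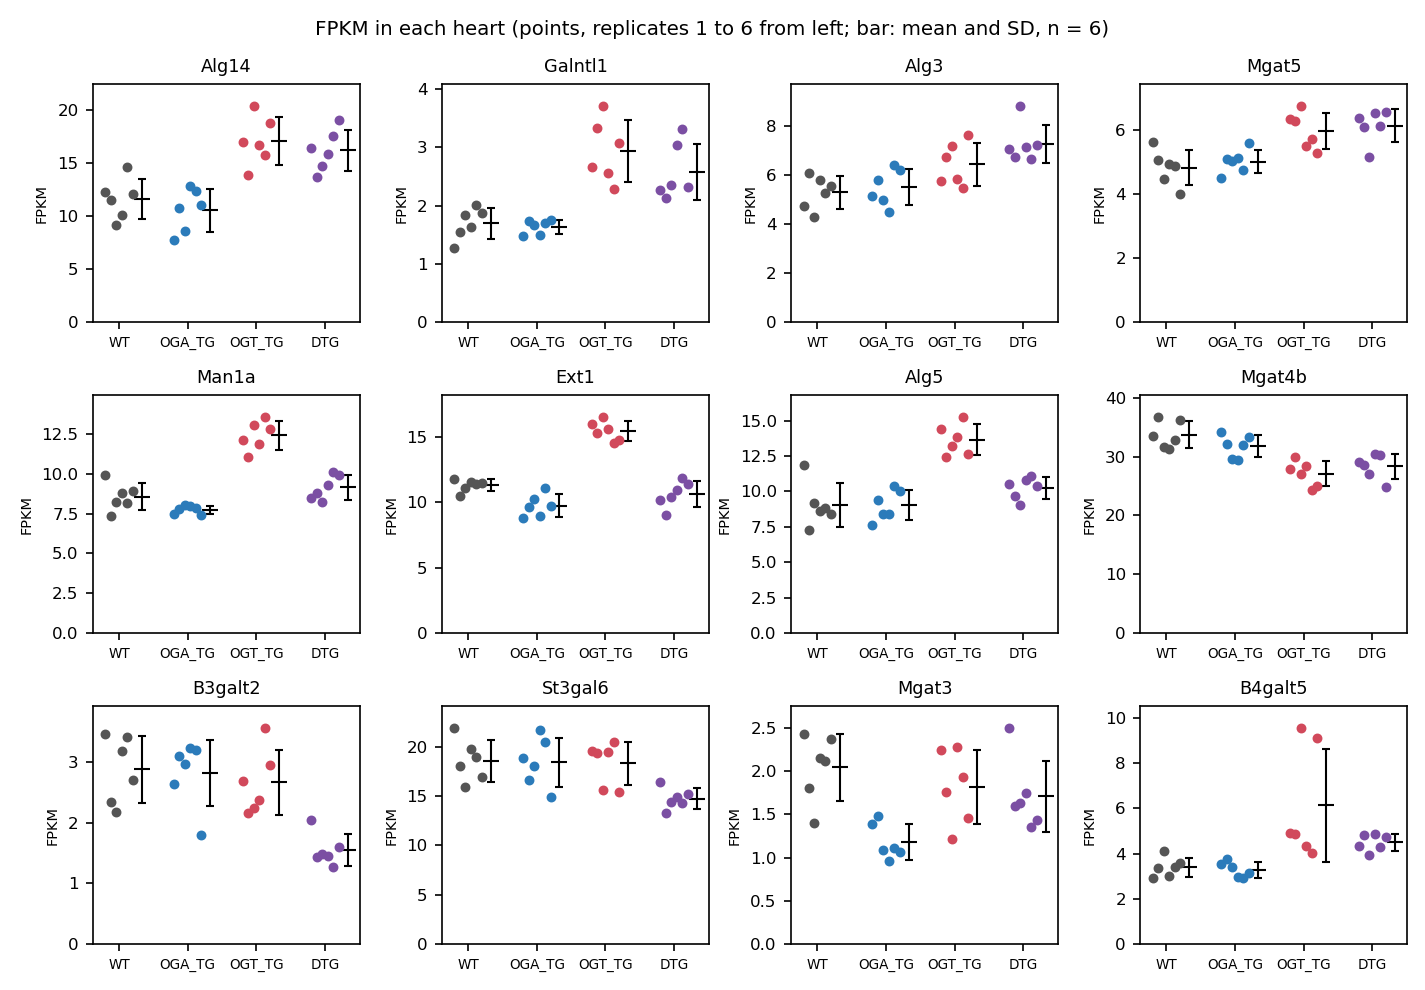
FPKM of 12 members in each heart (points, replicates 1 to 6 from left in each group) with the group mean and SD (n = 6), on linear axes that start at 0. Alg14, Galntl1, Alg3 and Mgat5 are higher in both groups that carry the OGT transgene, Man1a, Ext1 and Alg5 in OGT_TG, Mgat4b is lower in both, B3galt2 and St3gal6 are lower in DTG, Mgat3 is lowest in OGA_TG, and B4galt5 is led by OGT_TG replicates 3 and 6.

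Galactosylation genes gave 4 rises in OGT_TG and 1 fall in DTG among 11 tested, where 25.2% of all rows rose in OGT_TG and 11.4% fell in DTG. This group was formed by gene name and includes B3galtl (current symbol B3glct), which transfers glucose and not galactose. B4galt1 lay at 30.5 to 34.1 FPKM in WT (median 30.8), 23.4 to 30.7 in OGA_TG (median 28.1), 34.7 to 41.7 in OGT_TG (median 37.1) and 30.4 to 40.1 in DTG (median 31.9). OGT_TG did not overlap WT, and the rise was 0.25 ± 0.06 (adjusted p = 0.003). B4galt5, which makes lactosylceramide, had the largest difference of any tested member in OGT_TG, 0.63 ± 0.14 (adjusted p = 0.0016), which was 0.33 (adjusted p = 0.0046) without OGT_TG replicates 3 and 6. Its level was 2.93 to 4.1 FPKM in WT and, within OGT_TG, 9.56 and 9.12 in replicates 3 and 6 while the remaining 4 hearts had 4.01 to 4.91. B4galt4 rose by 0.25 ± 0.10 (adjusted p = 0.047), a call lost without those hearts (0.16), and B4galt6, a second lactosylceramide synthase, from 6.66 ± 0.78 to 7.99 ± 0.91 FPKM.

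B3galt2, a transferase that adds galactose to GlcNAc, had the largest difference in DTG. It lay at 2.18 to 3.46 FPKM in WT (median 2.94), 1.8 to 3.22 in OGA_TG (median 3.03), 2.15 to 3.56 in OGT_TG (median 2.53) and 1.27 to 2.05 in DTG (median 1.46). Every DTG heart was below every WT and every OGT_TG heart, and 1 OGA_TG heart reached into the DTG range. B3galt2 fell by 0.60 ± 0.11 in DTG against WT (adjusted p = 0.00051). It was also lower in DTG than in OGT_TG (-0.52 ± 0.11, adjusted p = 0.0011) and than in OGA_TG (-0.58 ± 0.11, adjusted p = 0.00056). These 3 calls held under every scaling and without each single heart.

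Sialylation genes split between the groups. St6galnac2, which adds sialic acid to O-linked GalNAc, lay at 3.86 to 6.26 FPKM in WT (median 5.75), 3.9 to 5.05 in OGA_TG (median 4.73), 6.14 to 8.88 in OGT_TG (median 7.67) and 3.66 to 5.79 in DTG (median 4.64). The OGT_TG hearts were above all DTG hearts and overlapped WT through 1 heart of each group. It rose by 0.41 ± 0.10 in OGT_TG (adjusted p = 0.0026) and was lower by -0.60 ± 0.10 in DTG than in OGT_TG (adjusted p = 0.00016).

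St3gal1, which caps mucin-type O-glycans, lay at 9.57 to 12.2 FPKM in WT (median 11), 8.09 to 8.59 in OGA_TG (median 8.22), 11 to 18.7 in OGT_TG (median 13.1) and 8.73 to 10.5 in DTG (median 9.68). All OGA_TG hearts were below all WT hearts, the only member for which this held (1.69% of all rows did not overlap), but the difference of -0.36 ± 0.09 did not pass the test (adjusted p = 0.085). It rose by 0.33 ± 0.09 in OGT_TG (adjusted p = 0.0065), a call lost without OGT_TG replicates 3 and 6 (0.17).

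St3gal6, which sialylates N-glycan and selectin-ligand chains, lay at 15.9 to 21.9 FPKM in WT (median 18.5), 15 to 21.7 in OGA_TG (median 18.5), 15.4 to 20.5 in OGT_TG (median 19.4) and 13.3 to 16.4 in DTG (median 14.6). The DTG hearts were the lowest, with some overlap. St3gal6 fell by 0.31 ± 0.09 in DTG against WT (adjusted p = 0.02) and St3gal4 by 0.22 ± 0.07 (adjusted p = 0.029). Both calls ended under median-of-ratios, quantile and equal-sum scaling. St3gal6 shares 1603 exon bases with Dcbld2 on the opposite strand, so reads of the pair could have been mixed if strand was not used.

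Of mucin-type initiation, Galntl1 alone was called against WT. It lay at 1.26 to 2.01 FPKM in WT (median 1.73), 1.48 to 1.75 in OGA_TG (median 1.68), 2.29 to 3.71 in OGT_TG (median 2.87) and 2.13 to 3.31 in DTG (median 2.33). Every OGT_TG and DTG heart was above every WT and OGA_TG heart. It rose by 0.54 ± 0.09 in OGT_TG (adjusted p = 0.00012) and by 0.40 ± 0.09 in DTG (adjusted p = 0.0052), and both calls held under every scaling and without each single heart. The abundant Galnt1, Galnt2 (16.1 ± 1.5 FPKM in WT) and Galnt11 (12.2 ± 0.62 FPKM) passed no test against WT. Galnt2 shares 3854 exon bases with the annotated gene Gm20388 on the same strand, so its reads are uncertain.

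O-mannosylation gave opposite calls within its 3 genes. Pomt1, part of the complex that attaches mannose to dystroglycan, fell from 6.23 ± 0.64 FPKM in WT to 4.96 ± 0.64 in OGT_TG and 5.07 ± 0.58 in DTG, by 0.28 ± 0.08 (adjusted p = 0.0061) and 0.25 ± 0.08 (adjusted p = 0.026). The groups overlapped at 5.16 to 5.84 FPKM, and the DTG call was lost under median-of-ratios and equal-sum scaling. Its partner Pomt2 stood at 4.66 ± 0.33 FPKM in WT, 4.38 ± 0.50 in OGT_TG and 4.05 ± 0.34 in DTG, and was not called against WT. Pomgnt1, which extends the mannose with GlcNAc, rose from 24.8 ± 1.1 to 29.3 ± 2.9 FPKM in OGT_TG, by 0.23 ± 0.06 (adjusted p = 0.0052), a call lost under median-of-ratios scaling. Pomgnt1 shares 592 exon bases with Lurap1 on the opposite strand.

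Eogt places GlcNAc on secreted and membrane proteins inside the ER, the reaction closest to that of OGT. It lay at 7.48 to 9.39 FPKM in WT (median 8.28), 6.35 to 8.08 in OGA_TG (median 7.21), 9.37 to 11.4 in OGT_TG (median 10.3) and 7.22 to 8.77 in DTG (median 7.83). The OGT_TG hearts were above all OGA_TG and DTG hearts and touched WT at its top. Eogt rose by 0.27 ± 0.07 in OGT_TG (adjusted p = 0.0044) and was lower by -0.35 ± 0.07 in DTG than in OGT_TG (adjusted p = 0.001).

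In heparan sulphate building, Ext1, a subunit of the chain polymerase, lay at 10.5 to 11.8 FPKM in WT (median 11.4), 8.81 to 11.1 in OGA_TG (median 9.68), 14.5 to 16.5 in OGT_TG (median 15.5) and 9.04 to 11.9 in DTG (median 10.7). The OGT_TG hearts stood clear of the other 18. Ext1 rose by 0.42 ± 0.06 in OGT_TG (adjusted p = 1.6e-05) and was lower by -0.50 ± 0.06 in DTG than in OGT_TG (adjusted p = 7.9e-06). Its partner Ext2 stood at 15.4 ± 1.3 FPKM in WT and 16.4 ± 2.2 in OGT_TG and was not called. Extl3, which starts the chain, fell by 0.16 ± 0.05 in DTG (adjusted p = 0.027), a call lost under median-of-ratios, quantile and equal-sum scaling.

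Fucosylation genes passed no test against WT in any group. Pofut2, which fucosylates thrombospondin repeats, was the highest at 20.2 ± 4.7 FPKM in WT and 24.8 ± 7.5 in OGT_TG. Fut8, which adds the core fucose of N-glycans, stood at 11.3 ± 1.1 FPKM in WT and 12.3 ± 0.90 in OGT_TG. The lactosamine group, led by B3gnt2 at 9.99 ± 1.4 FPKM in WT and 10.4 ± 0.83 in OGT_TG, was also not called against WT. B3gnt2 shares 2449 exon bases with the annotated gene Gm28048 on the same strand, so its reads are uncertain.

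DTG hearts were compared with WT to ask how the genes stand with both enzymes raised. Of the 80 tested members 4 rose and 9 fell, against 4.21% and 11.4% of all rows, 15.6% in either direction. The rises were Alg3, Alg14, Galntl1 and Mgat5, and the falls were Alg2, Alg6, Alg12, B3galt2, Extl3, Mgat4b, Pomt1, St3gal4 and St3gal6. After median-of-ratios scaling 4 rose and 3 fell, the falls being B3galt2, Alg6 and Mgat4b. Of all 12020 rows 760 rose and 916 fell under that scaling, 13.9% in either direction. In 8 members the DTG and WT hearts did not overlap, 2 higher and 6 lower in DTG, against 9.36% of all rows. In OGA_TG against WT 1 member was called, and 9 reached an unadjusted p under 0.05.

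**Figure D4:**
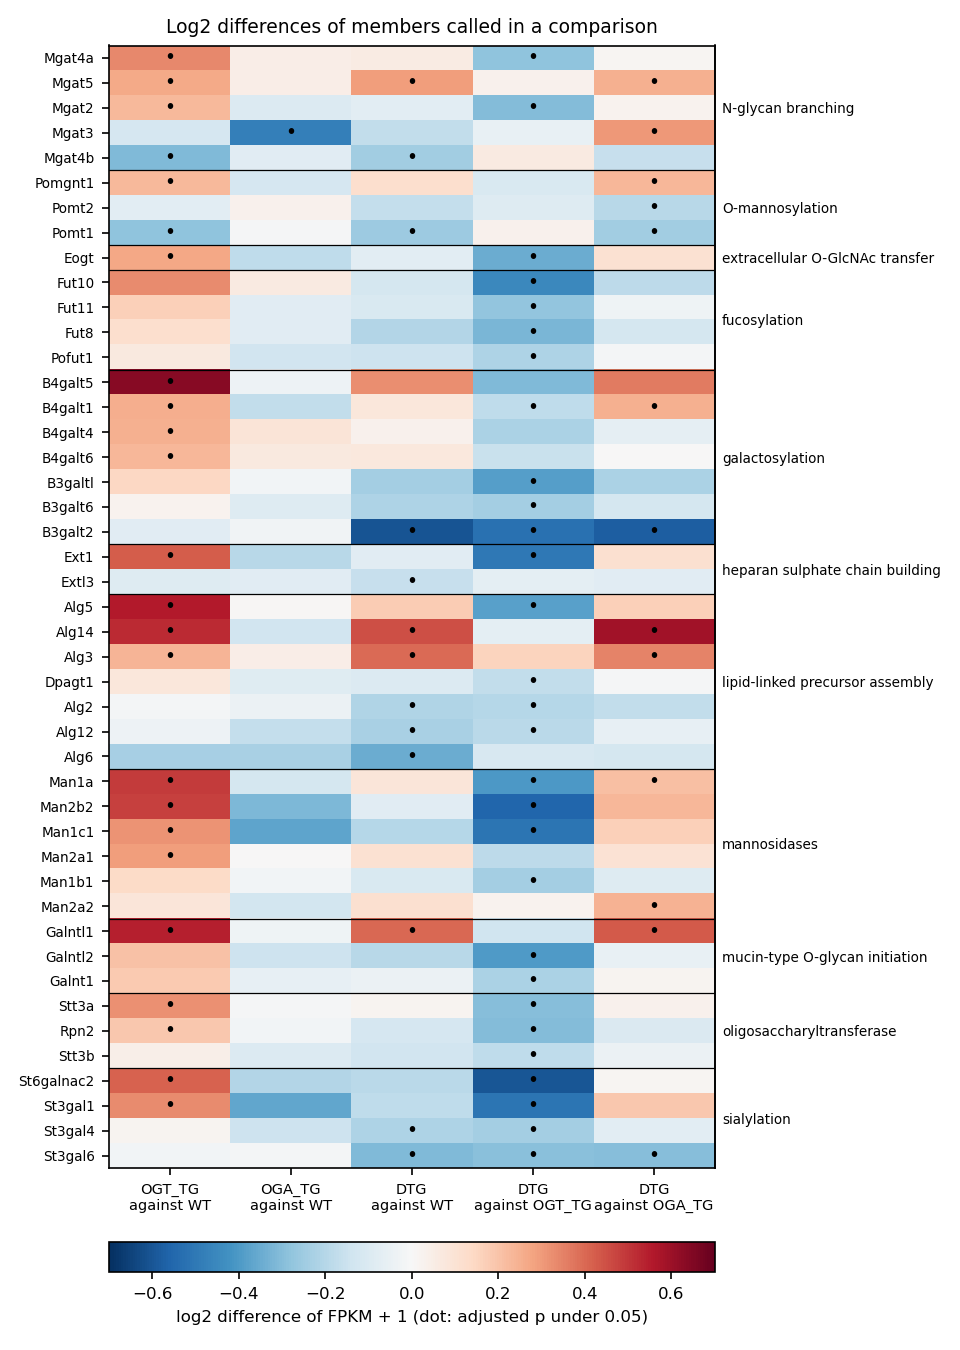
Log2 difference of FPKM + 1 (colour, from -0.7 to 0.7) in 5 comparisons for the 45 members called in at least 1 of them, by role, with a dot where the adjusted p is under 0.05. The first column is mostly red with 22 rises and 2 falls, the OGA_TG column holds a single dot at Mgat3, and the column of DTG against OGT_TG has 29 falls.

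DTG was also compared directly with each single transgenic. The OGT row was higher in every DTG heart (3986 to 5261 FPKM) than in every OGT_TG heart (715 to 2691 FPKM). In DTG against OGT_TG the added OGA transgene and the higher OGT level therefore cannot be told apart. The numbers that open the sample titles, whose meaning is not given, also differ. DTG hearts share no title number with another group, so genotype and title number cannot be told apart in any comparison with DTG. Against OGT_TG, 29 members were lower in DTG and 0 higher, against 27.2% and 5.02% of all rows and 32.3% in either direction. In 9 members every DTG heart was below every OGT_TG heart, and 9.89% of all rows did not overlap. The median of all rows in this comparison was -0.11 on the log2 scale and that of the members -0.19. After median-of-ratios scaling, which moves the median of all rows to 0.00, 12 members were lower and 3 higher, namely Mgat4b (0.19), Alg3 (0.27) and St3gal3 (0.35). Of all 12020 rows 1477 were then lower and 1383 higher, 23.8% in either direction. Without OGT_TG replicates 3 and 6, 17 members were lower, against 23.2% of all rows called in either direction. The largest differences were those of St6galnac2 (-0.60), Man2b2 (-0.56 ± 0.16, adjusted p = 0.011, and -0.36 with no call without those hearts), B3galt2 (-0.52), Man1c1 and St3gal1 (each -0.51) and Ext1 (-0.50). Fibroblast markers fell in the same comparison, 6 of 8, and 1 of 7 macrophage markers. Their part in the result was not tested.

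Against OGA_TG, 9 members were higher in DTG and 4 lower, against 8.33% and 9.77% of all rows. The same 13 were called after median-of-ratios scaling, where 19.1% of all rows were called. The higher genes included Alg14, Galntl1 (0.43 ± 0.09, adjusted p = 0.0025), Alg3 (0.35 ± 0.09, adjusted p = 0.01) and Mgat3 (0.31 ± 0.10, adjusted p = 0.042). The lower genes were B3galt2, St3gal6 (-0.30 ± 0.09, adjusted p = 0.023), Pomt1 and Pomt2. The interaction, the DTG to OGT_TG difference minus the OGA_TG to WT difference, called 2 members, B3galt2 (-0.50 ± 0.15, adjusted p = 0.048) and Ext1 (-0.31 ± 0.09, adjusted p = 0.034), against 7.3% of all rows, 5.49% with a negative and 1.81% with a positive term. Neither call passed under median-of-ratios or quantile scaling. Without OGT_TG replicates 3 and 6 the differences were -0.51 and -0.30, about as large, with an adjusted p = 0.081 and 0.061. Between males and females limma called 0 members, against 0.266% of all rows, and 5 had an unadjusted p under 0.05. In WT and OGT_TG no title number is held by both sexes, so sex and title number cannot be told apart there.

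Among the 26 members under the expression minimum, 2 are named because of their values, seen in these data. St8sia5, which extends gangliosides with further sialic acid, lay at 0 to 0.225 FPKM in WT (median 0.121), 0 to 0.113 in OGA_TG (median 0.0422), 0.659 to 1.85 in OGT_TG (median 1.01) and 0.274 to 0.767 in DTG (median 0.603). Every OGT_TG and DTG heart was above every WT and OGA_TG heart. In the fit with no filter it rose by 0.93 ± 0.10 in OGT_TG (adjusted p = 2e-06) and by 0.46 ± 0.10 in DTG (adjusted p = 0.0063) against WT. Mgat5b, a branching enzyme of brain O-mannose glycans, lay at 0.0381 to 0.172 FPKM in WT and 0.226 to 3.01 in OGT_TG, with 1.76 and 3.01 in replicates 3 and 6. Also called as rises in OGT_TG in the fit with no filter were Mgat5b (0.78, adjusted p = 0.0052), B3galt1 (0.18, adjusted p = 0.0235) and B3gnt7 (0.096, adjusted p = 0.018). The share of all rows called in that fit is not given. St8sia5 and Mgat5b were picked for these same values, so their p-values add no separate support. At such low levels the log2(FPKM + 1) scale understates ratios, and depth is unknown.

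**Figure D5:**
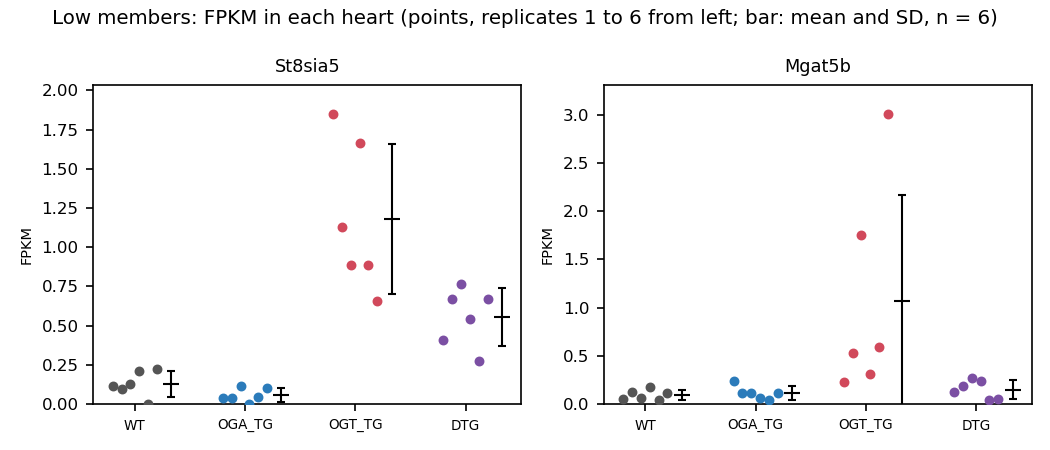
FPKM of St8sia5 and Mgat5b in each heart (points, replicates 1 to 6 from left) with the group mean and SD (n = 6). All OGT_TG and DTG hearts exceed all WT hearts for St8sia5, while Mgat5b is highest in OGT_TG replicates 3 and 6, at 1.76 and 3.01 FPKM.

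Genes that serve the same chains but fall outside the name rule were followed in 8 lists. In OGT_TG against WT, 10 of 21 tested heparan and chondroitin sulphate enzymes rose and 0 fell, where 25.2% of all rows rose and 12.2% fell, with a list median of 0.21 against 0.06 over all rows. The largest rises were those of Sulf1 (1.27, adjusted p = 3.7e-07) and Sulf2 (0.87, adjusted p = 1.8e-07), extracellular sulphatases that trim heparan sulphate, and Dse (0.90, adjusted p = 6.5e-05), the epimerase of dermatan sulphate. Sulf2 also rose in DTG (0.56, adjusted p = 0.00011). Of 14 genes for O-glycan cores and other chains 7 rose and 0 fell, led by Gxylt2 (0.96), Gcnt1 (0.91, adjusted p = 0.021), the branching enzyme of mucin-type O-glycans, and B4galnt1 (0.75). Without OGT_TG replicates 3 and 6 these differences were 0.53, 1.11 and 0.42. Gcnt1 was lower in DTG than in OGT_TG by -1.43 ± 0.30 (adjusted p = 0.0012). Its hearts were widely spread, at 2.57 ± 2.4 FPKM (SD) in WT, 1.22 ± 0.23 in OGA_TG, 4.81 ± 1.6 in OGT_TG and 1.23 ± 1.1 in DTG.

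Of 14 genes of dolichol and mannose donor supply 5 rose in OGT_TG, among them Nus1 (0.35), which helps to make dolichol, and Pmm2 (0.34), the phosphomannomutase. Over all rows 25.2% rose in OGT_TG, the share against which the counts of rises in these lists stand. Pmm2 also rose in DTG (0.25, adjusted p = 0.019). Donor synthesis gave 3 rises of 13, led by Ugdh (0.62, adjusted p = 0.00014), which makes UDP-glucuronate, and sugar nucleotide transporters 4 of 12, led by Slc35d2 (0.37). In DTG Nans, the sialic acid synthase, fell by 0.36 (adjusted p = 0.031) and Ugp2, which makes UDP-glucose, by 0.26 (adjusted p = 0.023).

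Glucose trimming and folding quality control gave 5 rises and 1 fall of 13 in OGT_TG, where 25.2% of all rows rose and 12.2% fell. The fall was Canx, the lectin chaperone calnexin, by 0.28 (adjusted p = 0.0094), and Canx fell by 0.46 in DTG (adjusted p = 0.00042). Of 7 oligosaccharyltransferase partners, Ddost rose by 0.17 (adjusted p = 0.036) and Magt1, which serves the Stt3b complex, fell by 0.46 in OGT_TG (adjusted p = 0.00019) and by 0.61 in DTG (adjusted p = 2.5e-05). Of 6 genes of dystroglycan glycosylation beyond the members, 0 were called against WT in any group. Without OGT_TG replicates 3 and 6 the rises in OGT_TG came to 6 of 21 for the heparan and chondroitin list, 5 of 14 for O-glycan cores, 3 of 14 for dolichol supply, 2 of 13 for donor synthesis, 1 of 13 for quality control and 0 of 12 for transporters. Without those hearts 25.3% of all rows were called in either direction. The share of all rows that rose, the like measure for these counts, is not given. The difference of Ddost was then 0.07. Median-of-ratios scaling ended the OGT_TG calls of Chsy1, Chst15, Ugcg, Dpm2, Mpdu1, Slc35a5, Slc35b3, Slc35b4, Ganab, Uggt1, Pdia3 and Ddost in these lists. C1galt1, Lman1 and Slc35e1 passed in OGT_TG only under that scaling.

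Grouped by donor, the 19 tested members that use UDP-GlcNAc, the donor shared with OGT, held 7 rises and 1 fall in OGT_TG, with a median of 0.10. The 10 that use UDP-galactose held 4 rises (median 0.07), the 9 that use UDP-GalNAc 1 rise (median 0.18) and the 10 that use CMP-sialic acid 2 rises (median 0.01), against a median of 0.06 over all rows, of which 25.2% rose and 12.2% fell. These donor classes were drawn up after the values had been seen and carry no test.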

How the data were processed

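Poly(A)-selected RNA of whole hearts was sequenced from stranded libraries as paired reads of 100 bp, per the labels' protocols. The authors deposited 1 table of FPKM values per gene and library. FastQC, TopHat, SAMtools, StringTie, Cuffdiff 2.2.1 and the build mm10 are named in the submitters' processing notes, and the strand setting of the counting is not given. FPKM hides read depth, and shares between genes make values relative: a rise in some genes lowers others. Relative depth read from low values was 0.872 to 1.36 of WT replicate 1, but only 34.0% to 58.9% of ratios were whole (within 0.003 log2), so reads were not recovered and no count test was run. Of 19664 rows 4 lacked values.

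Values were tested as log2(FPKM + 1), so fold changes of low genes are understated, with limma 3.58.1 in R 4.3.3 (moderated, two-sided, with trend), all 24 hearts, genotype and sex as terms, on 12020 rows with at least 1 FPKM in at least 6 libraries, at a Benjamini-Hochberg adjusted p under 0.05. Simulated data with known changes were used to check the fit. Alternatives were pseudocount, filter, scaling (median-of-ratios, quantile, equal sum), sex term, threshold, replicate block and hearts left out. Members, roles and lists were chosen with earlier results of these data known. Genes described in full are up to 3 rises and 3 falls per role in OGT_TG and DTG, all calls in OGA_TG, up to 6 largest calls in other comparisons, and the highest of each role. From other lists up to 3 calls each are named. The labels do not say whether hearts come from independent litters. The fit took the 6 hearts of each group as independent. In every group some hearts share a title number, and in OGA_TG every heart shares its number with others of the group. Such hearts may not be independent, and the p-values rest on the assumption that they are. Exon overlaps come from the GRCm38 annotation and promoters from RefSeq on GRCm38.p6.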

Additional observations from a re-analysis of the deposited data

Results flagged for a closer look

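In 120 groups of 6 hearts, over 30 named genes, 6 held a heart whose gap to its nearest neighbour exceeded Dixon's 95% critical share of the group's range, and chance flags about 1 group in 20. High hearts were DTG replicate 3 for Alg3 (8.82 FPKM), WT replicate 1 for B4galt1 (34.1 FPKM), DTG replicate 1 for Mgat3 (2.5 FPKM) and DTG replicate 6 for St3gal4 (16.5 FPKM). Low hearts were DTG replicate 6 for Extl3 (14.7 FPKM) and DTG replicate 3 for Mgat5 (5.15 FPKM).

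The DTG to OGT_TG difference and the OGA_TG to WT difference were unequal, by the interaction term, for B3galt2 (log2 difference -0.50) and Ext1 (-0.31). Neither passed the threshold after median-of-ratios or quantile scaling, or without OGT_TG replicates 3 and 6, where the differences were -0.51 and -0.30.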

How the results depend on the processing

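No result reversed its direction under any alternative. Median-of-ratios scaling left 7 members called in DTG against WT, 15 in DTG against OGT_TG and 0 for the interaction, quantile scaling 7, 14 and 0, and equal sums of FPKM 7 in DTG against WT and 1 for the interaction. These scalings move the median of all rows, by 0.11 on the log2 scale in DTG against OGT_TG. In OGA_TG against WT 0 members were called under these 3 scalings, a 5 FPKM filter (which removes Mgat3), no sex term, either sex alone or an adjusted p of 0.01, and 3 (Mgat3, Man1c1 and St3gal1) without OGT_TG replicates 3 and 6. Without those hearts DTG against OGT_TG held 17 and the interaction 0. The interaction held 1 with no filter, a 5 FPKM filter or no sex term. Female hearts alone gave 7 (OGT_TG against WT), 0 (DTG against WT), 2 (DTG against OGT_TG), 1 (DTG against OGA_TG) and 0 (interaction), and male hearts alone 10, 1, 9, 4 and 0, with fewer samples. An adjusted p of 0.01 gave 5, 14, 5 and 0 in the last 4 of these. With single hearts left out the counts ran from 18 to 28 for OGT_TG against WT, 0 to 2 for OGA_TG, 9 to 16 for DTG against WT, 22 to 34 and 9 to 15 for DTG against OGT_TG and OGA_TG, 0 to 6 for the interaction and 0 to 0 for sex. Of 50 named differences, 18 lost their call without at least 1 single heart: Alg3, B4galt4, Man1c1, Man2b2, Mgat2 and Rpn2 in OGT_TG, Mgat3 in OGA_TG, Alg2, Alg6, Alg12, Extl3, Pomt1, St3gal4 and St3gal6 in DTG, Mgat3 and St3gal6 in DTG against OGA_TG, and both interactions. Pseudocount 0.1 ended 0 calls. WT and OGT_TG share title numbers, whose meaning is not given, and OGA_TG and DTG have others. Genotype and title number thus cannot be told apart in any comparison with OGA_TG or DTG, or in the interaction. Same-numbered WT and OGT_TG hearts correlated by -0.048 to 0.37 (median 0.097, 10 pairs, 5 above 0.1), and differently numbered hearts of the same sex by -0.29 to 0.007 (median -0.196, 8 pairs). Deviations were taken from the mean of each group and sex, so positive values in some pairs force negative values in others. The gap between same-numbered and differently numbered pairs is thus partly built in, and it is at most a hint that same-numbered hearts deviated together. Not every pair passed 0.1, so the number was not treated as a pairing. Each number is held by as many WT as OGT_TG hearts, so the main fit ignores a possible pairing. A replicate block on the title number gave 25 members called in OGT_TG, against 16 in the WT and OGT_TG hearts with no block. It ended the calls of Alg3, Mgat2 and St3gal1 (adjusted p = 0.060, 0.076 and 0.059). The share of all rows called in these fits is not given, so the gain cannot be set against the table as a whole. FPKM without depth limits what can be said of members under 1 FPKM.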
